A study of Mus musculus with 15 samples.

Results

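Interferon-stimulated genes were followed as a list of 37 named mouse genes, matched by Ensembl identifier and symbol, of 54232 genes in the deposited tables. All 37 were found and all 37 passed the filter on low values. They were measured by RNA sequencing of mRNA in 15 mouse brain tumours, each collected at a functional end point from the frontal cortex of a C57BL/6 mouse. The tumours were made with the RCAS system, in which avian DF-1 cells deliver retroviral genes to those mouse cells that carry the Tv-a receptor, here driven by the Nestin promoter. Every mouse was p53 fl/fl and received RCAS-Cre and RCAS-PDGFA, so p53 loss and PDGFA were common to all groups. The groups were ATRX fl/fl mice (genotype label Np53fl;ATRXfl/fl) given RCAS-H3.3G34R-GFP (4 tumours) or RCAS-H3.3WT-GFP (4 tumours), and mice without the floxed ATRX allele (label Np53fl) given RCAS-H3.3G34R-GFP (3 tumours) or RCAS-H3.3WT-GFP (4 tumours). They are called Atrx-floxed or Atrx-intact below, with the histone. Cre reached only cells with the receptor, so host cells within a tumour kept their own alleles, and the labels give neither sex nor age.

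Interferons are secreted cytokines that cells release on sensing viral or misplaced nucleic acid. Type I interferons signal through the receptor made of Ifnar1 and Ifnar2 and the kinases Jak1 and Tyk2 to a complex that holds Stat2 and Irf9 and binds a DNA element called ISRE in front of its target genes. Interferon gamma acts through its own receptor, Jak1 and Jak2, on genes with a different element called GAS. In the brain, microglia, macrophages, astrocytes, endothelial cells and glioma cells can all respond, so a bulk tumour sums their RNA. Fewer cells of a type and less RNA per cell cannot be told apart in these samples.

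Promoters of 19 members, of 29 that could be looked up, held the letters that such factors read. As examples, 6 promoters with such letters are printed, and none without them. Promoter windows of 300 bases, from 250 before to 50 after the annotated start, were taken from RefSeq on GRCm38.p6, a patch release of the mm10 assembly. The table held 29 of the 37 genes. Mx1, Mx2, Oas2, Usp18, Ifi27, Dhx58, Rtp4 and Parp14 were not matched. Capitals mark matches to the ISRE core GAAANNGAAA or to the GAS core TTCNNNGAA, on either strand, so that an ISRE on the opposite strand reads TTTCNNTTTC. Isg15 (chr4:156200769-156201068, minus strand), Ifit3 (chr19:34583279-34583578, plus strand) and its close copy Ifit3b (chr19:34607707-34608006, plus strand) hold 2 or more ISRE matches each. Igtp (chr11:58199306-58199605, plus strand) holds one of each kind, Cxcl10 (chr5:92348840-92349139, minus strand) a single ISRE match, and Irf1 (chr11:53769764-53770063, plus strand) a GAS match alone.
Isg15: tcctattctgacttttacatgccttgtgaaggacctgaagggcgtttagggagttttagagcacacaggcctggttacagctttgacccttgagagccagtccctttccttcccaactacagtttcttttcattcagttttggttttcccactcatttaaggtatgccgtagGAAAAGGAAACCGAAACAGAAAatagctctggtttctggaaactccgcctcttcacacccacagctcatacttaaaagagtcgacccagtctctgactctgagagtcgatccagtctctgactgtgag
Ifit3: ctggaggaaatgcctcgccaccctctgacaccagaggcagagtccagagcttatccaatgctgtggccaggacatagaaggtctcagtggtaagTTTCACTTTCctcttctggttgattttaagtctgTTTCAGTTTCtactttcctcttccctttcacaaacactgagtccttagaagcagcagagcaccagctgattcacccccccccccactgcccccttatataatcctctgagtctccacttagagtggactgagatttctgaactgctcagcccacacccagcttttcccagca
Ifit3b: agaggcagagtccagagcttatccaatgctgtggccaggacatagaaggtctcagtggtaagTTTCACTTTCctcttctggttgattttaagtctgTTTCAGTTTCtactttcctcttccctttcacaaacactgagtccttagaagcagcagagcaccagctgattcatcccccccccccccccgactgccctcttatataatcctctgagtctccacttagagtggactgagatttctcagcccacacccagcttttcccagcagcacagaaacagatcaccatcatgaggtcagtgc
Igtp: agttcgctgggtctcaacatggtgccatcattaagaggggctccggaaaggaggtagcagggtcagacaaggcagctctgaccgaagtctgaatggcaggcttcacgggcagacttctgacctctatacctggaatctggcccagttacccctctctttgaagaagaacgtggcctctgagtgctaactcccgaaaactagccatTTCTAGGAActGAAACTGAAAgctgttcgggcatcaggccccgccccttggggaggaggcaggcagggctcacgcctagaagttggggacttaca
Cxcl10: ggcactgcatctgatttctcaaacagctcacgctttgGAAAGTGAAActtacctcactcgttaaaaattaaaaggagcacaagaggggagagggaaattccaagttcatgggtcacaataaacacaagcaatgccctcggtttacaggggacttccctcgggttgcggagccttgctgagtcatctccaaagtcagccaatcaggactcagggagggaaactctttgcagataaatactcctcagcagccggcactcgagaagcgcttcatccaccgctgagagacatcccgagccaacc
Irf1: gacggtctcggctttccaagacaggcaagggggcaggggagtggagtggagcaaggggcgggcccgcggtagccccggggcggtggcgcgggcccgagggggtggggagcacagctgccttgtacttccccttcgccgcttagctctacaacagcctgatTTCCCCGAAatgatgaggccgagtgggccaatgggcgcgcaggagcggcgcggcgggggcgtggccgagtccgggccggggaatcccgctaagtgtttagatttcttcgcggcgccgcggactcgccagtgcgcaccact

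With positions counted from the annotated start, the first ISRE match of Isg15 begins at -78 and runs into the next, so the capitals form a single run. The matches of Ifit3 begin at -156 and -122 and those of Ifit3b at -188 and -154. The single match of Cxcl10 begins at -213, that of Igtp at -34, and the GAS match of Irf1 at -90. Across the list, 16 of 29 genes (55.2%) held an ISRE match, against 3.99% of 27025 genes in the RefSeq table. A GAS match stood in 8 of 29 (27.6%), against 9.55% of all genes, and 5 held both. Bst2 was the member in which an ISRE and a GAS match overlapped. A match describes these letters only, and a window without one says nothing of the factor. The fold range over the 15 tumours, highest over lowest, had a median of 34.2 in the 16 genes with an ISRE match and 22.3 in the 13 without one. For GAS the order was the other way, with a median of 23.4 in the 8 genes with a match and 33.8 in the 21 without one.

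Many members are neighbours. Chromosome 11 held 8 of them, chromosome 5 held 6, and chromosomes 3, 16 and 19 held 4 each (mm10 positions of GENCODE vM21). The 4 IFIT genes lie within 99316 bases of chromosome 19, from 34550694 to 34650009. The 3 GBP genes lie between 142530342 and 142638008 of chromosome 3, and Rsad2 and Cmpk2 are 12751 bases apart on chromosome 12. Some members share sequence with another gene, and reads of such a pair may have been split between copies or dropped. Of the stretches of 50 bases in the longest transcript, Oas1a shared 57.6% with Oas1g, Ifit3 shared 51.2% with Ifit3b, and Igtp shared 12.3% with its neighbour Irgm2, so these values are uncertain. Exons of Cxcl10 overlap those of Art3 on the opposite strand, and those of Irf7 overlap Phrf1. The strand setting of the authors' counting is not given in the sources used here, so reads of overlapping genes on opposite strands may not have been separated.

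Libraries held 22807315 to 35679129 reads in genes. Atrx checked the genotype labels, with 1346 to 3124 normalised reads in the 8 Atrx-floxed tumours and 5143 to 8540.0 in the 7 Atrx-intact tumours. An Atrx-intact H3.3WT tumour, number 3, stood apart. Its summed mature neuron markers reached 130670 normalised reads, against 122 to 7555 in the other 14 tumours, and its summed glioma and progenitor markers (Olig2, Pdgfra, Sox2 and Nes) were 16752, against 83192 to 172010. Group comparisons and the summaries over tumours are also given without it, while fold ranges and variance shares of single members include it unless stated. Normalised reads are read counts scaled over all 15 libraries, and nothing in the labels says whether each library of a group came from a separate mouse. P-values therefore measure the spread between libraries.

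The main feature of the list was its spread between tumours of the same group. Of the 37 genes, 31 (83.8%) spanned at least 10-fold over the 15 tumours, with 1 added to each value, against 28.8% of 17776 genes tested. The SD of log2(value + 1) over tumours had a median of 1.44 for the list and 0.59 for all genes. Differences between the 4 group means accounted for a median of 7.95% of the variance of a member and 16.04% of the variance of a gene tested. Within the Atrx-floxed H3.3WT group the highest tumour exceeded the lowest by a median of 12.8-fold per member, with 157-fold for Igtp at the top. The same median was 6.92-fold within Atrx-floxed H3.3G34R, 9.70-fold within Atrx-intact H3.3G34R and 11.6-fold within Atrx-intact H3.3WT. Without Atrx-intact H3.3WT tumour 3, a choice made after the data were seen, 31 members still spanned at least 10-fold, against 23.8% of all genes, and the median within Atrx-intact H3.3WT was 7.55-fold. Group means then accounted for a median of 15.8% of the variance of a member and 20.4% of that of a gene tested, so the share for the members depended on that tumour.

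**Figure D1:**
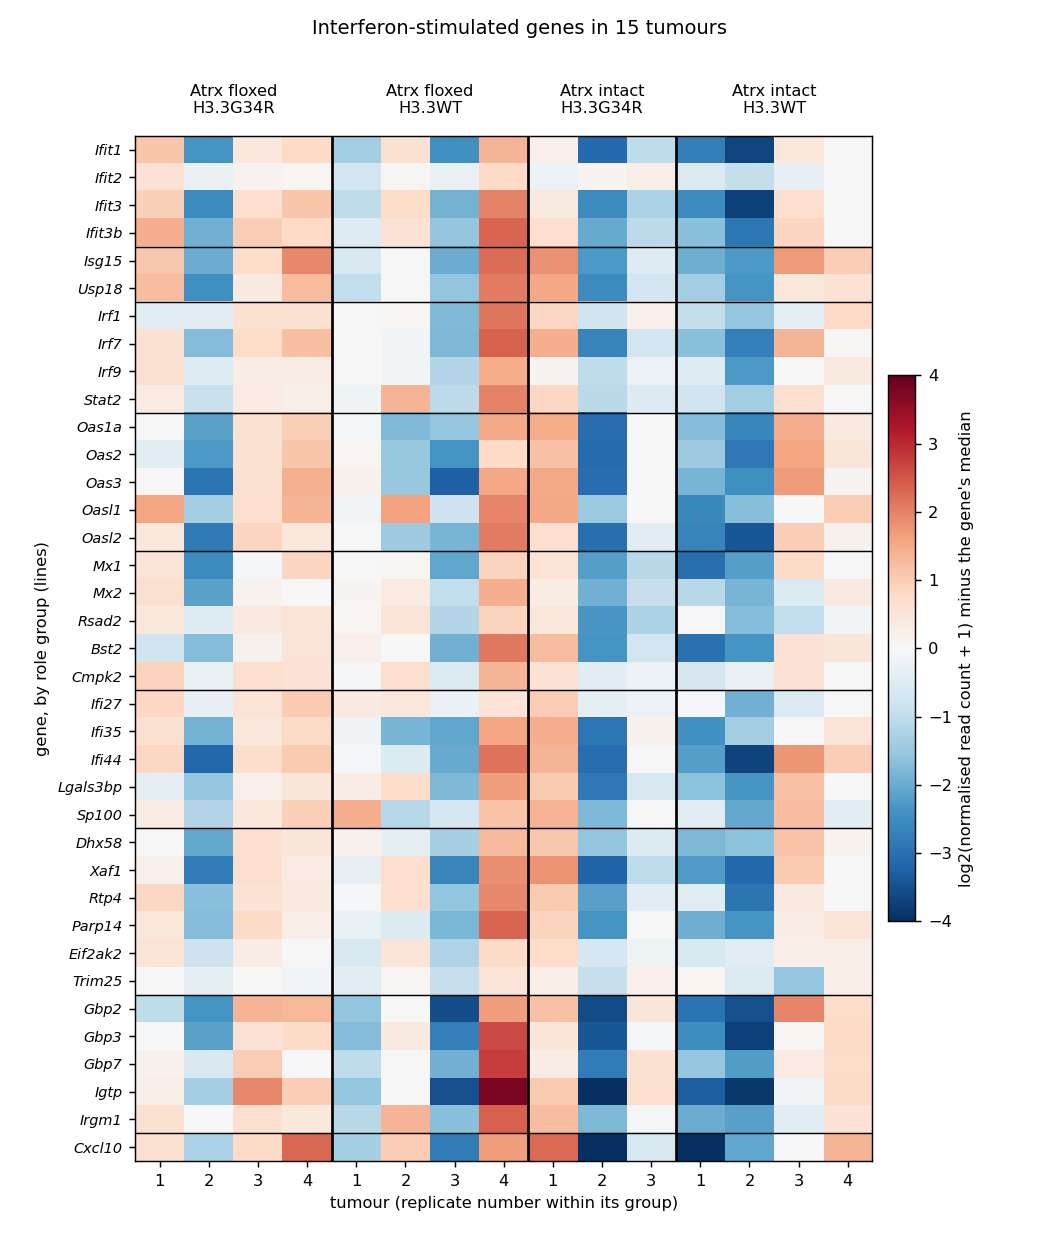
Levels of the 37 members (rows, in 9 role groups separated by lines) in 15 tumours (columns, by group), as log2(normalised read count + 1) minus the median of that gene over the 15 tumours. Columns are mostly of 1 colour: Atrx-floxed H3.3WT tumour 4 is red, and 5 columns spread over all 4 groups are blue.

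The tumours were high or low for the list as a whole. Each tumour was summarised by the median, over the 37 genes, of log2(value + 1) minus that gene's median over all tumours. In the Atrx-floxed H3.3G34R group these medians were 0.50, -1.73, 0.60 and 0.76. In the Atrx-floxed H3.3WT group they were -0.10, 0.05, -1.78 and 1.68. The Atrx-intact H3.3G34R tumours had 1.04, -2.36 and -0.23, and the Atrx-intact H3.3WT tumours had -1.73, -2.30, 0.45 and 0.27. All 4 groups therefore held at least 1 tumour at -1.73 or below, and the groups overlapped. Group means were 0.03 ± 1.18 (SD, n = 4), -0.04 ± 1.42 (n = 4), -0.52 ± 1.72 (n = 3) and -0.83 ± 1.39 (n = 4) in the same order. Without tumour 3 the mean of the Atrx-intact H3.3WT group was -1.25 ± 1.35 (n = 3).

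Atrx-floxed H3.3WT tumour 4 had the highest value of 31 of the 37 genes, while it was highest for 3.27% of all genes tested. Atrx-intact H3.3WT tumour 3 was highest for 3 members (Oas2, Oas3 and Gbp2) and Atrx-floxed H3.3G34R tumour 4 for 2 (Ifi27 and Cxcl10). Over all genes tested they were highest for 20.3% and 9.06%. At the other end, Atrx-intact H3.3WT tumour 2 was lowest for 15 members and Atrx-intact H3.3G34R tumour 2 for 12, against 10.8% and 4.75% of all genes. The 5 tumours with the lowest medians were these, Atrx-floxed H3.3WT tumour 3, Atrx-intact H3.3WT tumour 1 and Atrx-floxed H3.3G34R tumour 2. For 24 of the 37 members all 5 lay below each of the other 10 tumours, also when Atrx-intact H3.3WT tumour 3 was left out. These tumours were ordered on the members themselves, so the count is a description and has no test. The same count over all genes tested is not given here.

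**Figure D2:**
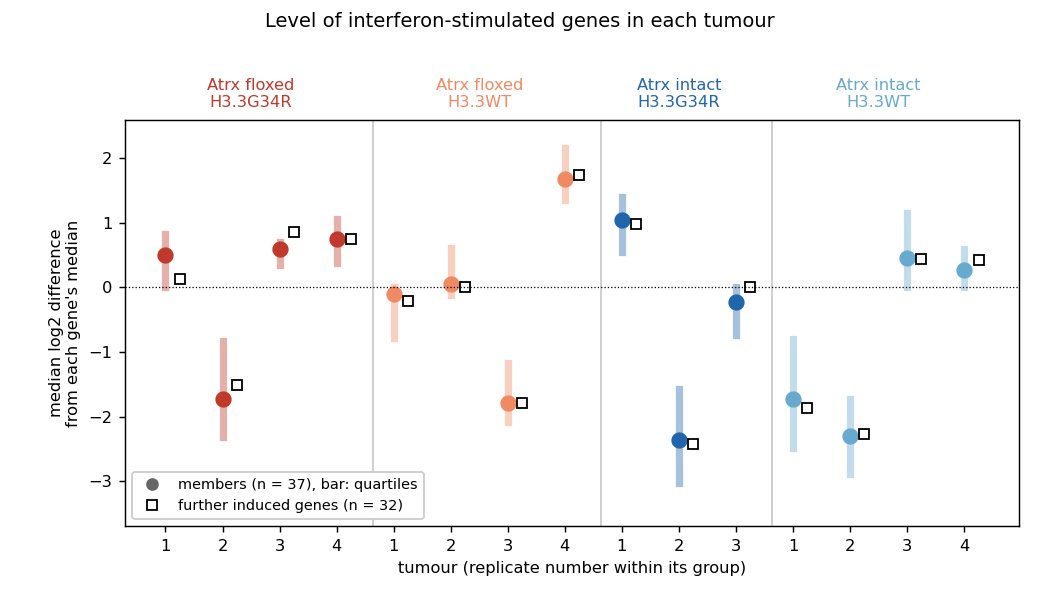
Median log2 difference from each gene's median over 15 tumours, for the 37 members (filled circles, with bars for the quartiles over members) and for 32 further interferon-induced genes (open squares), by tumour and group. Both sets place the same 5 tumours at the bottom and the same tumour, Atrx-floxed H3.3WT tumour 4 at 1.68 and 1.74, at the top.

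A separate list of 32 interferon-induced genes that are not members gave nearly the same order of tumours. It includes Tap1 and Psmb8, which serve antigen presentation, the sensor Ifih1 and further GTPases such as Iigp1. Its median was 1.74 in Atrx-floxed H3.3WT tumour 4, and the same 5 tumours had its 5 lowest medians, from -2.43 to -1.52. Of these 32 genes, 27 (84.4%) spanned at least 10-fold. Tap1 had 547 to 10285 normalised reads over the 15 tumours and Iigp1 had 27.7 to 8528.

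Among the transcription factors, Stat2, a subunit of the type I complex (chromosome 10, 128270559 to 128292849, plus strand), had 2918, 1262, 2949 and 2761 in the Atrx-floxed H3.3G34R tumours, 2096, 6046, 1125 and 9374 in the Atrx-floxed H3.3WT tumours, 4138, 1111 and 1608 in the Atrx-intact H3.3G34R tumours and 1343, 895, 3672 and 2348 in the Atrx-intact H3.3WT tumours (normalised reads, tumours 1 to 4 or 1 to 3). Atrx-floxed H3.3WT tumours 2 and 4 were the highest and all groups overlapped. Irf7, which amplifies type I interferon production (chromosome 7, 141262706 to 141266481, minus strand), had 1579.9, 314, 1726 and 2396 with floxed Atrx and H3.3G34R, 1041, 959, 301 and 5389 with floxed Atrx and H3.3WT, 2829, 162 and 620.2 with intact Atrx and H3.3G34R, and 324, 155, 2675 and 1085 with intact Atrx and H3.3WT. Irf7 spanned 34.7-fold and Stat2 10.5-fold, and the other 2 factors, Irf1 and Irf9, spanned 15.3-fold and 13.7-fold. Irf9 is the DNA-binding subunit of the type I complex and Irf1 a target of interferon gamma. Both had their highest value in Atrx-floxed H3.3WT tumour 4.

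The IFIT family encodes proteins that bind viral RNA and block its translation. Ifit3 (chromosome 19, 34583531 to 34588731, plus strand) had 2538, 223, 2087 and 2861 in the Atrx-floxed H3.3G34R tumours, 645, 2174, 353 and 5227 in the Atrx-floxed H3.3WT tumours, 1687, 221 and 547 in the Atrx-intact H3.3G34R tumours and 229, 97.8, 2075 and 1313 in the Atrx-intact H3.3WT tumours. It was low in the same 5 tumours, at 97.8 to 353, and at least 547 elsewhere. Ifit2, of the same cluster (chromosome 19, 34550694 to 34576419, plus strand), had 2962, 1668, 2182 and 2099 with floxed Atrx and H3.3G34R, 1158, 2056, 1623 and 3399 with floxed Atrx and H3.3WT, 1705, 2163 and 2352 with intact Atrx and H3.3G34R, and 1341, 1021, 1595 and 1985 with intact Atrx and H3.3WT. Its range was 3.33-fold, the narrowest of all 37 members, and 4 of the 5 low tumours had more Ifit2 than Atrx-floxed H3.3WT tumour 1. Ifit1 and Ifit3b spanned 33.8-fold and 37.4-fold, so Ifit2 was the one IFIT gene under 10-fold. The RefSeq windows of Ifit1, Ifit3 and Ifit3b held 2 ISRE matches each, and those of Ifit2 held none, with a GAS match at -241 in one of them.

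Isg15 is a small protein that is attached to other proteins, and Usp18 removes it and dampens the type I receptor. Isg15 (chromosome 4, 156199424 to 156200818, minus strand) had 1555, 184, 1229 and 2771 in the Atrx-floxed H3.3G34R tumours, 469, 733, 183 and 3456 in the Atrx-floxed H3.3WT tumours, 2612, 149 and 509 in the Atrx-intact H3.3G34R tumours and 189.8, 148, 2402 and 1460.3 in the Atrx-intact H3.3WT tumours. All 5 low tumours held 148 to 189.8 normalised reads and every other tumour at least 469. Usp18 spanned 25.2-fold and Isg15 23.4-fold.

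The OAS family includes enzymes that make the messenger that switches on RNase L, and Oasl1 and Oasl2 are its OAS-like members. Oasl2 (chromosome 5, 114896936 to 114912234, plus strand) had 3029.5, 319, 4105 and 3071 with floxed Atrx and H3.3G34R, 2270.0, 832, 626 and 9494 with floxed Atrx and H3.3WT, 3549, 279 and 1703 with intact Atrx and H3.3G34R, and 352, 209, 4451 and 2546 with intact Atrx and H3.3WT. Oas3 (chromosome 5, 120753098 to 120777661, minus strand) was the least abundant member per length, with 90.4, 11.2, 140.2 and 248 in the Atrx-floxed H3.3G34R tumours, 105, 31.5, 8.71 and 271 in the Atrx-floxed H3.3WT tumours, 264, 10.4 and 92.3 in the Atrx-intact H3.3G34R tumours and 24.9, 15.9, 300.02 and 99.6 in the Atrx-intact H3.3WT tumours. Group means accounted for 1.31% of the variance of Oas3, 1.49% of that of Oas1a and 1.497% of that of Oas2, and of the 37 members Eif2ak2 alone had less (1.11%). Fold ranges of the 5 OAS genes ran from 23.99 to 45.3. Atrx-floxed H3.3WT tumour 2 was low for Oas1a, Oas2, Oas3 and Oasl2 and not for Oasl1, as the heat map of members by tumour shows: its OAS median was -1.52, against 0.59 for its IFIT genes.

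Of the antiviral effectors, Bst2 (tetherin, which holds budding virus at the cell surface; chromosome 8, 71534255 to 71537456, minus strand) had 1184, 622, 2329 and 2954 with floxed Atrx and H3.3G34R, 2365, 2059.7, 548 and 8856 with floxed Atrx and H3.3WT, 4968, 401 and 1240.4 with intact Atrx and H3.3G34R, and 260.3, 399.7, 3105 and 2897 with intact Atrx and H3.3WT. Bst2 was also the most abundant of these 5 per length, with a median of 2281 normalised reads per kilobase of exon. Mx1 and Mx2, dynamin-like GTPases, spanned 15.8-fold and 12.1-fold at medians of 36.9 and 77.7 per kilobase, and C57BL/6 mice are known to carry a defective Mx1 allele. Rsad2 (viperin) and its neighbour Cmpk2, a nucleotide kinase, spanned 9.39-fold and 4.08-fold.

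A group of 6 members sense RNA or take part in signalling: the helicase-like Dhx58, the kinase Eif2ak2 (PKR), the ubiquitin ligase Trim25, the ADP-ribosyltransferase Parp14, Rtp4 and Xaf1. Trim25 (chromosome 11, 88999376 to 89020293, plus strand) had 4346, 3405, 4391 and 4008 in the Atrx-floxed H3.3G34R tumours, 3154, 4547, 2314 and 6279 in the Atrx-floxed H3.3WT tumours, 5083, 2289.7 and 4974 in the Atrx-intact H3.3G34R tumours and 4615, 2884, 1478 and 5232 in the Atrx-intact H3.3WT tumours. Its lowest value was in Atrx-intact H3.3WT tumour 3, the tumour rich in neuron markers, and it spanned 4.25-fold. Without that tumour Trim25 spanned 2.74-fold, its 3 lowest values stood in tumours that were low for the list, and its highest was in Atrx-floxed H3.3WT tumour 4. Xaf1, a pro-apoptotic zinc finger protein (chromosome 11, 72301629 to 72313733, plus strand), had 2704, 336, 3725 and 2943 with floxed Atrx and H3.3G34R, 1871, 3659, 376 and 8527 with floxed Atrx and H3.3WT, 8060.3, 253 and 1149.9 with intact Atrx and H3.3G34R, and 483, 262, 4841 and 2333 with intact Atrx and H3.3WT, a range of 33.8-fold. Eif2ak2 spanned 4.05-fold, and Dhx58, Rtp4 and Parp14 spanned 10.4-fold, 28.6-fold and 26.1-fold.

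The interferon-inducible GTPases act on vacuoles that hold pathogens and are classic targets of interferon gamma. Irgm1 (chromosome 11, 48861968 to 48871683, minus strand) had 10247, 6736, 10546 and 9048 in the Atrx-floxed H3.3G34R tumours, 3092, 17442, 2135 and 35543 in the Atrx-floxed H3.3WT tumours, 15829.6, 1958 and 6591 in the Atrx-intact H3.3G34R tumours and 1713, 1479, 5079 and 10069 in the Atrx-intact H3.3WT tumours. Igtp (Irgm3; chromosome 11, 58199556 to 58207591, plus strand) had 3105, 1043, 9893 and 5163 with floxed Atrx and H3.3G34R, 896, 2633, 230.0 and 36076 with floxed Atrx and H3.3WT, 5485, 159 and 4108 with intact Atrx and H3.3G34R, and 268, 179.7, 2462 and 4481 with intact Atrx and H3.3WT. Atrx-floxed H3.3WT tumour 4 stood far above the next highest, Atrx-floxed H3.3G34R tumour 3, and the whole range was 227-fold. Gbp2, Gbp3 and Gbp7, guanylate-binding proteins, spanned 46.8-fold, 83.04-fold and 47.1-fold. The GTPase median of the tumours ran from -3.51 in Atrx-intact H3.3WT tumour 2 to 2.63 in Atrx-floxed H3.3WT tumour 4.

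**Figure D3:**
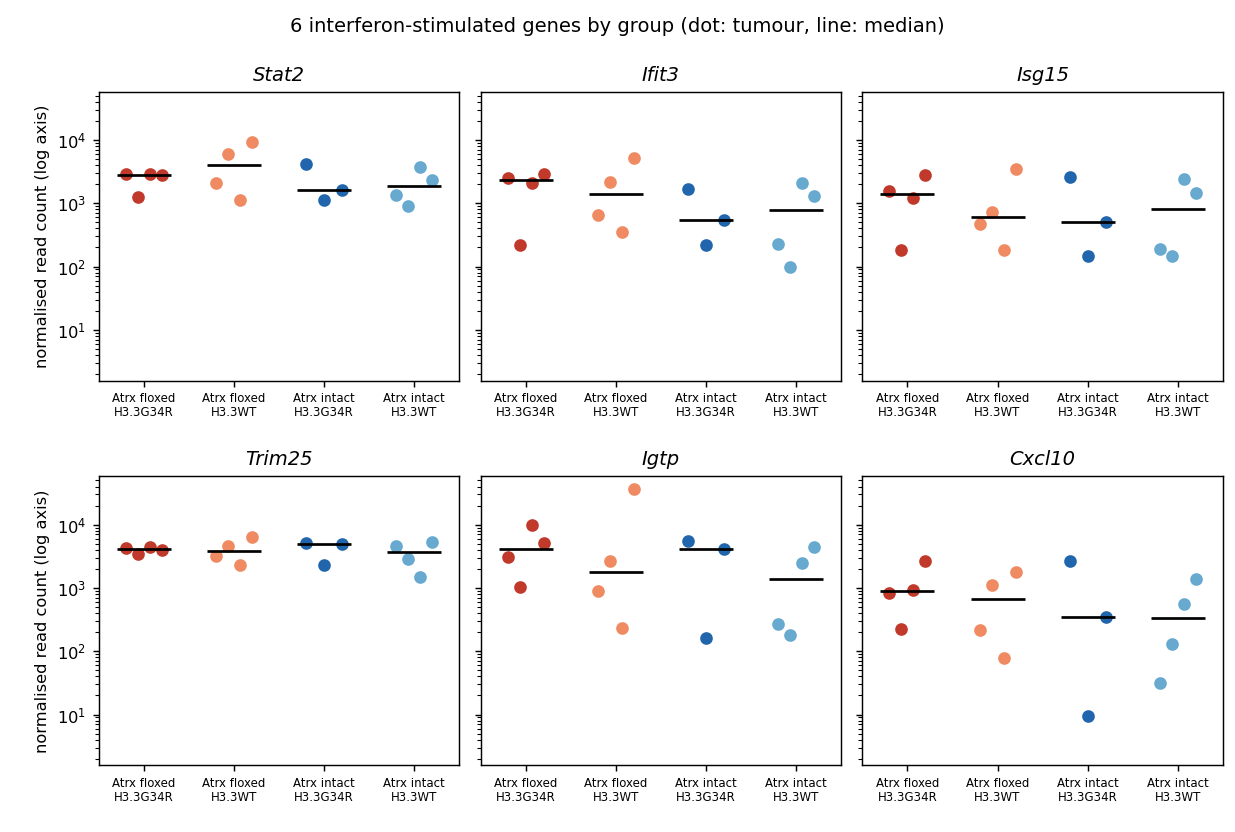
Normalised read counts (log axis) of 6 members in each tumour (dots) by group, with the group median as a line. Trim25 stays within 1478 to 6279, while Igtp spans 227-fold and Cxcl10 283-fold, and the groups overlap in each panel.

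Among the other effectors, Ifi27, a small interferon-induced membrane protein (chromosome 12, 103434211 to 103440239, plus strand), had 8311, 3724, 6782 and 9757 in the Atrx-floxed H3.3G34R tumours, 6021, 6394, 3863 and 6842 in the Atrx-floxed H3.3WT tumours, 9577, 3649 and 3996 in the Atrx-intact H3.3G34R tumours and 4563, 1246, 3131 and 4689 in the Atrx-intact H3.3WT tumours. It was the most abundant member per length, with a median of 3196 normalised reads per kilobase, and group means accounted for 36.8% of its variance, the largest share of the list. Ifi44 (chromosome 3, 151730922 to 151749960, minus strand) had 461, 28.5, 425 and 544 with floxed Atrx and H3.3G34R, 249, 179, 63.6 and 1162 with floxed Atrx and H3.3WT, 668, 30.3 and 260.0 with intact Atrx and H3.3G34R, and 55.3, 19.1, 889.8 and 514 with intact Atrx and H3.3WT. Its range was 60.7-fold, and the 5 low tumours held 19.1 to 63.6 normalised reads. Ifi35, Lgals3bp (a secreted galectin-binding protein) and Sp100 (of nuclear bodies) spanned 22.3-fold, 23.2-fold and 11.6-fold.

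Cxcl10, the chemokine that draws T cells and NK cells through Cxcr3 (chromosome 5, 92346638 to 92348889, minus strand), was the widest member, with 842, 224, 938 and 2697 in the Atrx-floxed H3.3G34R tumours, 219, 1116, 78.4 and 1764 in the Atrx-floxed H3.3WT tumours, 2655, 9.52 and 353 in the Atrx-intact H3.3G34R tumours and 31.5, 129.7, 551 and 1403 in the Atrx-intact H3.3WT tumours. Its SD on the log2 scale was 2.36 and its range 283-fold. The highest values stood in Atrx-floxed H3.3G34R tumour 4 and Atrx-intact H3.3G34R tumour 1, and the lowest in Atrx-intact H3.3G34R tumour 2, so the H3.3G34R tumours with intact Atrx held nearly the whole range.

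The question the design puts is whether H3.3G34R or loss of Atrx goes with a change of gene expression. For these genes no comparison passed the test. The authors' 5 pairs of groups were each fitted across all genes with limma, and the interaction asked whether the H3.3G34R difference itself differed with Atrx status. At an adjusted p under 0.05, 0 of the 37 members were called in any of the 5 pairs or in the interaction, and edgeR and DESeq2 also called 0. Over all genes edgeR called 0.0%, 0.0%, 0.0%, 0.0112% and 0.0113% in the pairs, in the order that follows, and 0.0% in the interaction. DESeq2 called 0.151%, 0.0681%, 0.486%, 0.378% and 0.328% in the pairs and 0.0546% in the interaction. The authors' deposited tables hold 0 members under 0.05 in each pair, beside 0.182%, 0.0578%, 0.538%, 0.352% and 0.38% of all genes with an adjusted p. In no pair did the groups stand apart without overlap for any member, against 2.16%, 2.61%, 4.64%, 2.65% and 2.94% of all genes tested in the pairs. The pairs share groups and are not independent of each other.

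For H3.3G34R against H3.3WT in Atrx-floxed tumours, 0 members were called, against 0.0% of 17521 genes (limma, adjusted p under 0.05). The members' log2 differences had a median of 0.12, with 25 of 37 above 0, and the median over all genes was -0.000775. Their standard errors had a median of 0.83. No member had an unadjusted p under 0.05, against 2.79% of all genes. The smallest p belonged to Cxcl10, with 1159 ± 1052 in H3.3G34R and 779 ± 779.5 in H3.3WT tumours (table-scaled mean ± SD, n = 4 each), a log2 difference of 0.96 ± 1.02 (SE; limma adjusted p = 0.9997). Ifi27 differed by 0.26 ± 0.32, Ifi35 by 0.62 ± 0.86 and Ifit2 by 0.20 ± 0.32. Of those lower, Stat2 differed by -0.53 ± 0.62, Mx2 by -0.56 ± 0.67, Lgals3bp by -0.53 ± 0.69 and Bst2 by -0.55 ± 0.77. The list's median was -0.13 with edgeR and -0.15 with DESeq2, and 0.74 without Atrx-floxed H3.3WT tumour 4, so its sign was not stable.

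In Atrx-intact tumours, H3.3G34R against H3.3WT gave 0 called members and 0.0% of 17873 genes. The median log2 difference was 0.22, with 32 of 37 above 0, and the median standard error was 1.06. None had an unadjusted p under 0.05 (1.47% of all genes). Ifit2 came nearest, with 2122 ± 345 in the 3 H3.3G34R tumours and 1517 ± 415 in the 4 H3.3WT tumours, a log2 difference of 0.51 ± 0.28 (limma adjusted p = 0.99999). Ifi27 differed by 0.78 ± 0.54, Irf1 by 0.60 ± 0.59 and Irgm1 by 0.81 ± 0.87. Lower members were Rsad2 at -0.33 ± 0.70, Lgals3bp at -0.12 ± 1.07, Mx2 at -0.07 ± 0.69 and Cxcl10 at -0.16 ± 1.93. Leaving out 1 tumour at a time moved the median between -0.51 and 1.09, and it was below 0 without H3.3G34R tumour 1 or without H3.3WT tumour 1 or 2. Without H3.3WT tumour 3 it was 0.75, with Lgals3bp at 0.50, Mx2 at 0.01 and Cxcl10 at 0.24.

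Atrx-floxed against Atrx-intact tumours, both with H3.3G34R, gave 0 called members, against 0.0229% of 17459 genes. All 37 log2 differences were above 0, with a median of 0.51 and a median standard error of 0.86, and none had an unadjusted p under 0.05 (3.39% of all genes). The members moved together over tumours, so these signs are not 37 separate observations. Rsad2 had 1056 ± 299 in the Atrx-floxed and 585 ± 549 in the Atrx-intact tumours (n = 4 and 3), a log2 difference of 1.24 ± 0.59 (limma adjusted p = 0.9999). Irf9 differed by 0.54 ± 0.34, Cmpk2 by 0.49 ± 0.35 and Ifit1 by 1.31 ± 0.98. Without Atrx-intact tumour 2 the median was -0.28, and it was 1.11 without Atrx-floxed tumour 2.

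The pair of Atrx-floxed and Atrx-intact tumours with H3.3WT gave 0 called members and 0.0335% of 17893 genes. The median log2 difference was 0.78, with 34 of 37 above 0 and a median standard error of 0.95. No member had an unadjusted p under 0.05 (3.76% of all genes). Ifi27 had 5770.3 ± 1310.2 in Atrx-floxed and 3418 ± 1611 in Atrx-intact tumours (n = 4 each), a log2 difference of 0.89 ± 0.42 (limma adjusted p = 0.975). Oasl1 differed by 1.47 ± 0.90, Mx2 by 1.003 ± 0.62 and Rsad2 by 0.78 ± 0.53. The 3 members below 0 were Oas2 (-0.20 ± 1.05), Oas3 (-0.15 ± 1.19) and Eif2ak2 (-0.02 ± 0.46). Without Atrx-floxed tumour 4, the highest of all, the median was 0.11, and without Atrx-intact tumour 3 it was 1.17, with Oas2 at 0.51, Oas3 at 0.62 and Eif2ak2 at 0.12.

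Atrx-floxed H3.3G34R tumours against Atrx-intact H3.3WT tumours differ in both the allele and the histone. Here 0 members were called, against 0.0227% of 17659 genes, while 3 of 37 had an unadjusted p under 0.05, against 4.37% of all genes, or 2.72% counting only higher ones. These were Irgm1, Ifi27 and Ifit2, and all 3 were higher with floxed Atrx and H3.3G34R. Irgm1 had 8864 ± 1663 in Atrx-floxed H3.3G34R and 4431 ± 3887 in Atrx-intact H3.3WT tumours (n = 4 each), a log2 difference of 1.42 ± 0.57 (limma adjusted p = 0.999). Ifi27 differed by 1.16 ± 0.47 and Ifit2 by 0.60 ± 0.26, with a limma adjusted p = 0.999 for both. Rsad2 followed at 0.91 ± 0.43. All 37 differences were above 0, with a median of 0.78 and a median standard error of 0.88. The median was 1.36 without Atrx-floxed tumour 2 and 1.17 without Atrx-intact tumour 3.

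**Figure D4:**
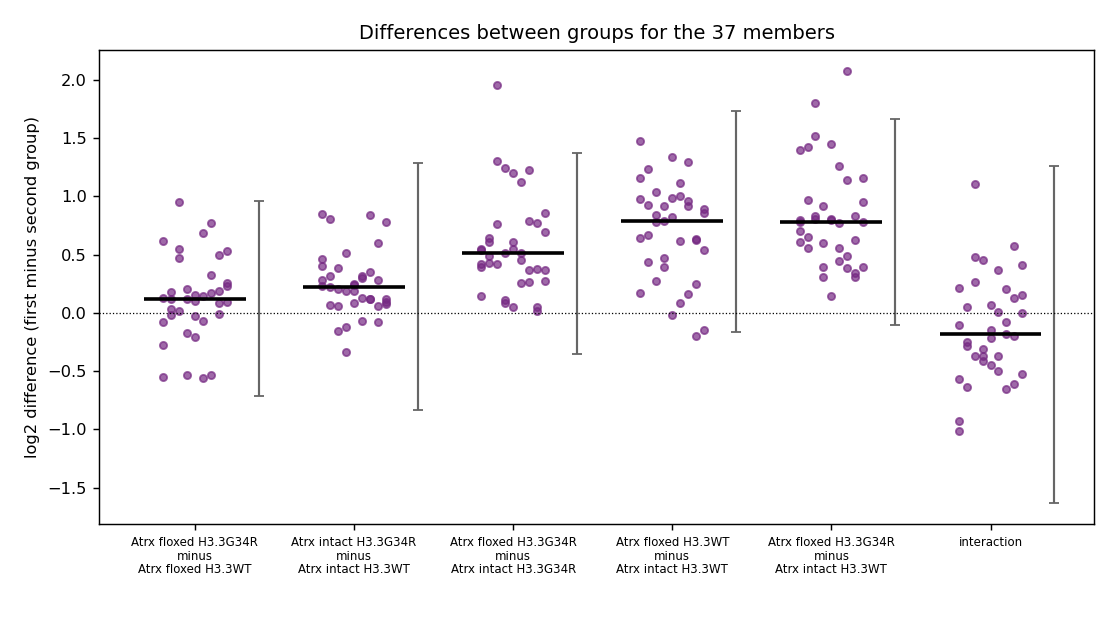
Log2 difference of each of the 37 members (dots) in the 5 pairs of groups and in the interaction (H3.3G34R minus H3.3WT in Atrx-floxed tumours, minus the same in Atrx-intact tumours), with the median as a black line. The grey bar is the median standard error of 1 member on each side of that line: it crosses 0 in every comparison.

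The interaction of Atrx status and histone, fitted on all 15 tumours, also called 0 members and 0.0% of 17776 genes. Its median over the members was -0.18, with 14 of 37 above 0 and a median standard error of 1.44, and no member had an unadjusted p under 0.05 (2.05% of all genes). The largest value was 1.11 ± 2.30 for Cxcl10 and the lowest -1.01 ± 1.48 for Bst2. Both are smaller than their standard errors. The sign of the median was not stable: with 1 tumour left out it ran from -1.02 (without Atrx-intact H3.3G34R tumour 2) to 0.52 (without Atrx-intact H3.3G34R tumour 1). It was also above 0 without Atrx-floxed H3.3G34R tumour 2, Atrx-floxed H3.3WT tumour 4, or Atrx-intact H3.3WT tumour 1 or 2. Without Atrx-intact H3.3WT tumour 3 it was -0.59, and summing libraries with the same first title code gave -1.30.

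Most genes that carry the signal to these targets varied less. Ligand genes were almost silent: of 10 interferon genes listed, none passed the filter of a mean of 10 normalised reads, and Ifna1, Ifna4, Ifna5, Ifnk, Ifnl2 and Ifnl3 had 0 reads in every library. Ifnb1 had 22 reads in Atrx-intact H3.3G34R tumour 1, the tumour with the second highest list median, and at most 4 reads in any other tumour. Ifng had 8 reads in that same tumour, the most of any, and 0 reads in Atrx-floxed H3.3WT tumour 4, whose list median was the highest. In contrast, 0 of 6 receptor genes spanned 10-fold with 1 added to each value. Ifnlr1 was the widest, at 9.88-fold on that scale, with 16.6 to 173 normalised reads. Ifnar1 had 1697 to 4497 normalised reads over the 15 tumours, Ifnar2 had 671 to 1855, Ifngr1 852 to 1721 and Ifngr2 1051 to 2332.

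Of the kinases and transducers, Jak1, Jak2, Tyk2 and Stat3 spanned 2.20-fold to 3.55-fold. None of the 52 tested genes of this pathway list passed the adjusted test in any comparison. In the 5 pairs 2, 0, 1, 1 and 3 of them had an unadjusted p under 0.05. The shares over all genes were 2.79%, 1.47%, 3.39%, 3.76% and 4.37%. In Atrx-floxed tumours the phosphatase Ptpn2, an inhibitor of JAK signalling, had 1024 ± 227 with H3.3G34R and 647 ± 102 with H3.3WT (log2 difference 0.64 ± 0.24, limma adjusted p = 0.9997), and Ifnar1 had 2262 ± 390.2 and 3255 ± 827 (-0.51 ± 0.22). Irf8, a myeloid factor, had 4398 ± 518 in Atrx-floxed and 2758 ± 700.4 in Atrx-intact H3.3G34R tumours without overlap (0.70 ± 0.23, limma adjusted p = 0.9999), and Isg20, an exonuclease, differed there by 1.82 ± 0.95. Of all genes tested, 4.64% did not overlap between these groups. Between Atrx-floxed and Atrx-intact H3.3WT tumours Ifnar2 differed by 0.63 ± 0.27 and Jak2 by 0.57 ± 0.33. Jak2 and Stat3 were first in the Atrx-intact pair, at 0.49 ± 0.35 and 0.41 ± 0.30. Atrx-floxed H3.3G34R against Atrx-intact H3.3WT tumours gave 2.03 ± 0.78 for the feedback inhibitor Socs3 and 0.81 ± 0.31 for Jak2 (limma adjusted p = 0.999 for both). Without Atrx-intact H3.3WT tumour 3 these pathway differences were 0.73 for Ifnar2 and 0.45 for Jak2 between the H3.3WT groups, 0.36 for Jak2 and 0.32 for Stat3 in the Atrx-intact pair, and 2.22 for Socs3 and 0.68 for Jak2 in the pair that differs in both. Socs3 was highest in Atrx-floxed H3.3G34R tumour 4, at 22797 normalised reads. The rest of that group had 1266 to 5807, and the Atrx-intact H3.3WT tumours had 597 to 1785.

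Markers of immune cells also varied between tumours. The 11 microglia and macrophage markers were detected in every tumour. Their summed level ran from 13514 to 72238 in Atrx-floxed H3.3G34R, 11817 to 49682 in Atrx-floxed H3.3WT, 12576 to 38457 in Atrx-intact H3.3G34R and 15547 to 88414 in Atrx-intact H3.3WT tumours. Atrx-floxed H3.3WT tumour 4, the highest for the list, had 25483. Atrx-intact H3.3WT tumour 2, the lowest for 15 members, had 25261, of which Tmem119 alone gave 15100. No other tumour had more than 3520 normalised reads of Tmem119. Aif1 (234), P2ry12 (59.5), Csf1r (964), C1qa (2197), C1qb (2153) and Ptprc (246) had their lowest values in Atrx-intact H3.3WT tumour 2. In the other 4 low tumours the sum was 11817 to 15547. The tumours ranked 2 and 3 for the list, Atrx-intact H3.3G34R tumour 1 and Atrx-floxed H3.3G34R tumour 4, had 38457 and 72238. Atrx-floxed H3.3G34R tumour 1, ranked 5, had 14071. Of 11 T and NK cell markers, 7 were at 0 in some tumour, and their sum was 161 to 428 in Atrx-floxed H3.3G34R, 68.9 to 636 in Atrx-floxed H3.3WT, 88.3 to 345 in Atrx-intact H3.3G34R and 118.0 to 388 in Atrx-intact H3.3WT tumours. Neutrophil markers peaked in Atrx-intact H3.3G34R tumour 1, at a sum of 1705, and B and plasma cell markers in Atrx-floxed H3.3G34R tumour 4, at 6530.1. The part of other cells in the list's level was not tested.

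Xist, the RNA of the inactive X chromosome, was at most 27.7 normalised reads in 7 tumours and 10675 or more in all others. Among those 7 were 4 of the 5 tumours with the lowest list medians, and the remaining ones ranked 3, 5 and 9 of 15 from the top. Atrx-intact H3.3WT tumour 1 had a low list median with 36221 normalised reads of Xist. With log2(Xist + 1) as a covariate, a choice made after the data were seen, 0 members were called in the 5 pairs and the interaction. The median log2 differences were then 0.51, 0.28, 1.35, 1.11 and 1.41 in the 5 pairs and 0.22 in the interaction. The part of sex in the list's level was not tested further.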

How the data were processed

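Per the labels' protocols, tumour RNA was purified with a Qiagen RNeasy kit, and TruSeq libraries of its mRNA were sequenced. Per the submitters' processing notes, STAR 2.7, HTSeq and DESeq2 were used on mm10, and the annotation, the strand setting and the versions of the last pair were not given in the sources used here. From the authors come 5 deposited tables of 54232 genes, each for a pair of groups. Their library columns hold a signal that the authors made from read counts divided by 1 size factor per library. Per the file headers the tables also hold a log2 fold change, a Wald score and p-values of DESeq2. In each library 100.0% of values were, within 0.01, a whole number of reads times a constant, so read counts could be recovered. In 3 columns 1 read was worth close to 1 unit, and their libraries' reads came from other tables. Depth was 22807315 to 35679129 reads in genes.

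Main tests used limma 3.58.1 (trend, robust) in R 4.3.3 on log2 of each pair's deposited values after adding 1, which understates changes of low genes. Genes needed a mean of 10, with Benjamini-Hochberg adjustment over all genes tested and a threshold of 0.05. The interaction and values of single tumours used recovered reads of all 15 libraries scaled by the median of ratios. Fits were tested on simulated data. Alternatives were no filter, pseudocounts of 0.5 and 5, edgeR 4.0.16 and DESeq2 1.42.0 on recovered read counts, TMM scaling, all groups in 1 fit, libraries with the same first title code summed, each library left out and, added after the data were seen, Xist as a covariate and summaries over tumours without the tumour rich in neuron markers. Symbols came from GENCODE vM21 (54165 identifiers, 99.9%).

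The members and all gene lists were chosen with earlier results of these data known. Values in every tumour are given for the member with the highest mean and the one with the largest SD of log2 in each of 9 role groups. Each comparison names up to 4 members per direction with the smallest limma p, and 2 genes of the 62 in the pathway list (10 interferon ligands, 6 receptors, 5 kinases and transducers, 4 other factors, 5 inhibitors and 32 further induced genes). Tables were read with data.table (version 1.17.8), pandas 2.3.3 and numpy 2.4.6 in Python 3.11.15 and drawn with matplotlib 3.10.9. One gene of the pathway list is not reported here.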

Additional observations from a re-analysis of the deposited data

Results flagged for a closer look

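Atrx-floxed H3.3G34R tumour 2 lay far below the 3 other tumours of its group. Its median level over the 37 members was -1.726 on the log2 scale, against 0.50 to 0.76 in the others, a gap larger than a 95% critical value for 4 samples allows. The same check marked Ifit3, with 222.6 normalised reads, Stat2 with 1262, Oasl2 with 319.1, Ifi44 with 28.46 and Xaf1 with 336.4 in this tumour. In all, 48 sets of 4 values were checked and 6 were marked, while chance marks about 1 in 20, and the genes are not independent of each other. The microglia and macrophage marker sum of this tumour was 13514 and that of the group 13514 to 72238, and its Xist level was 6.10 normalised reads. The part of either in its low values was not tested. Leaving this tumour out changed no call. The members' median log2 difference was then 0.56 for H3.3G34R against H3.3WT in Atrx-floxed tumours and 0.38 in the interaction. The medians for the other pairs that include this tumour are given with the comparisons.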

How the results depend on the processing

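The count of members called was 0 in the 5 pairs and the interaction and stayed 0 in each of 106 alternative fits, including edgeR, DESeq2 and every fit that left out 1 tumour (0 to 0). With 1 tumour left out, the median log2 difference of the members ran from -0.44 to 0.74 for H3.3G34R against H3.3WT in Atrx-floxed tumours, from -0.51 to 1.09 in Atrx-intact tumours, from -0.28 to 1.33 for floxed against intact Atrx with H3.3G34R, from 0.11 to 1.30 with H3.3WT, from 0.29 to 1.36 for the pair that differs in both, and from -1.02 to 0.52 for the interaction. Summing libraries with the same first title code gave medians of -0.01, 1.19, -0.17, 1.15 and 0.97 in the pairs in that order and -1.30 in the interaction, and the cause was not tested. Tumour medians moved by at most 0.077 in 45 recalculations (TMM scaling, a pseudocount of 5, members with a mean of at least 10). The last setting could move nothing, because all 37 members passed that filter. Of 911 single-gene log2 differences recomputed, 8 moved by more than their standard error, all after tumours were left out or summed. Over all genes DESeq2 called 33, 12, 111, 77 and 75 genes in the 5 pairs and 12 in the interaction, where limma called 0, 0, 4, 6 and 4 and 0. No paired analysis was possible because the labels give no replicate numbers. With 3 or 4 tumours a group, the members' standard errors had medians of 0.83 to 1.06 on the log2 scale in the pairs, which limits the size of a difference that could be detected.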

Other observations

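Values that no comparison uses concern members that broke the order of the list. Of the 13 genes for which at least 1 of the 5 low tumours overlapped the others, Ifit2 and Ifi27 had 4 of the 5 above the lowest value elsewhere. For Ifi27 that lowest value, 3131, stood in the neuron-rich Atrx-intact H3.3WT tumour 3. Without that tumour it was 3996, and of the 5 Atrx-intact H3.3WT tumour 1 alone lay above it, at 4563. Trim25 had all 5 above 1478, its value in the neuron-rich Atrx-intact H3.3WT tumour 3, and 2 above the lowest value elsewhere (3154) without that tumour. Cxcl10 and Igtp overlapped through Atrx-floxed H3.3G34R tumour 2 alone, with 224 and 1043 normalised reads, against lowest values of 219 and 896 in the 10 other tumours. Sp100 was the one member with its highest value in Atrx-floxed H3.3WT tumour 1, at 1123 normalised reads, the tumour with the highest endothelial marker sum (52870.0). That tumour was highest for 10.3% of all genes tested. Rsad2 differed in its order from its neighbour Cmpk2: Atrx-intact H3.3WT tumour 1 was the lowest for Cmpk2, at 490.2, and had 882.9 for Rsad2, the median of all 15 tumours.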
